A study of Mus musculus with 9 samples.

Results

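The genes described here are 10 genes of the mouse kidney that coat lipid droplets, fill and empty them, or carry fatty acids into and through the cell, and all 10 were found among the 29678 genes of the count tables. They were chosen by symbol, through the Ensembl identifiers that GENCODE M21 gives to Plin2, Plin3, Plin4, Plin5, Cd36, Fabp4, Fabp5, Dgat1, Dgat2 and Pnpla2. All 10 also passed the filter on low counts that left 17967 genes for testing, and the smallest count of any of them was 72 reads, for Plin4 in a sham kidney. Whole kidney RNA was sequenced 24 h after reperfusion in 3 groups. The first was pretreated with the sodium salt of β-hydroxybutyrate (BHB), a ketone body, before ischaemia-reperfusion injury of both kidneys (labelled BHBNa_bIRI, called BHB plus bIRI below). The second had the same bilateral injury without BHB (bIRI), and the third had a sham operation. Dose, route and time of BHB, and the strain, sex and age of the mice, are not given in the sources used here, and no sham kidney with BHB is among the libraries analysed. Nothing in the labels says whether each library came from a separate mouse, so the p-values measure the spread between these libraries.

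Lipid droplets are stores of triglyceride and sterol ester under a coat of proteins, among which the perilipins govern access of lipases to the core. Fatty acids enter cells partly through the membrane protein CD36, are carried in the cytosol by fatty acid binding proteins, and are joined to diacylglycerol by DGAT1 and DGAT2 in the last step of triglyceride synthesis. PNPLA2, also called ATGL, removes the first fatty acid again. The proximal tubule, the bulk of the renal cortex, burns fatty acids as its main fuel, and droplets accumulate in tubules when oxidation fails.

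The 3 BHB plus bIRI libraries held 44225882, 45014455 and 44376140 counted reads, the 2 bIRI libraries used held 41204065 and 33477985, and the 3 sham libraries held 43206974, 45909063 and 43498290. The values of bIRI replicate 2 were, gene by gene, the rounded-down average of the other bIRI libraries (1 and 3), so they were left out. A floor of 3 counts corresponded to 0.0646 to 0.0815 CPM, the count per 1000000 counts of a library after scaling, below every member's level, and covers counting error only. Mitochondrially encoded genes took 24.0% to 30.3% of the reads in BHB plus bIRI kidneys, 15.9% in bIRI kidneys and 11.2% to 13.3% in sham kidneys. The summed level of 7 markers of injured tubule was 15400 to 17000 CPM in BHB plus bIRI, 16600 to 26500 CPM in bIRI and 579 to 706 CPM in sham kidneys, and that of 11 proximal tubule markers was 1920 to 2050, 1670 to 2150 and 11000 to 12600 CPM in the same order of groups. In these bulk samples fewer tubule cells and less RNA per tubule cell cannot be told apart. BHB plus bIRI replicate 2 stood apart in adipocyte markers. Their sum was 89.9 CPM there, against 15.0 and 30.3 CPM in the other BHB plus bIRI libraries, 32.5 and 17.5 CPM in bIRI replicates 1 and 3, and 32.3 to 35.9 CPM in sham libraries.

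In bIRI kidneys Plin2, Plin4 and Fabp4 were higher than in sham kidneys, Plin5, Fabp5, Dgat1 and Dgat2 were lower, and Plin3, Cd36 and Pnpla2 did not pass the test. A gene was called when its adjusted p was at most 0.05 in edgeR's quasi-likelihood test, with Benjamini-Hochberg adjustment over all genes tested. These 7 of 10 called members stand beside 35.1% of all genes called in the same comparison, 18.9% higher and 16.2% lower. The libraries of both groups did not overlap in CPM for 8 of the 10 members, against 55.9% of all genes. In BHB plus bIRI kidneys against sham, 3 members were higher and 3 lower, with 43.6% of all genes called, 21.3% higher and 22.2% lower, and 7 did not overlap in CPM, against 64.8% of all genes. Between BHB plus bIRI and bIRI kidneys edgeR called 0 of the 10, where it called 13.5% of all genes, 4.88% higher and 8.65% lower. There 1 member, Dgat1, had an unadjusted p under 0.05, against 34.5% of all genes. The median log2 fold change of the members was -0.33 in BHB plus bIRI and -0.54 in bIRI against sham, beside 0.04 and 0.08 over all genes tested. These 3 comparisons share libraries and are not independent of each other.

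**Figure D1:**
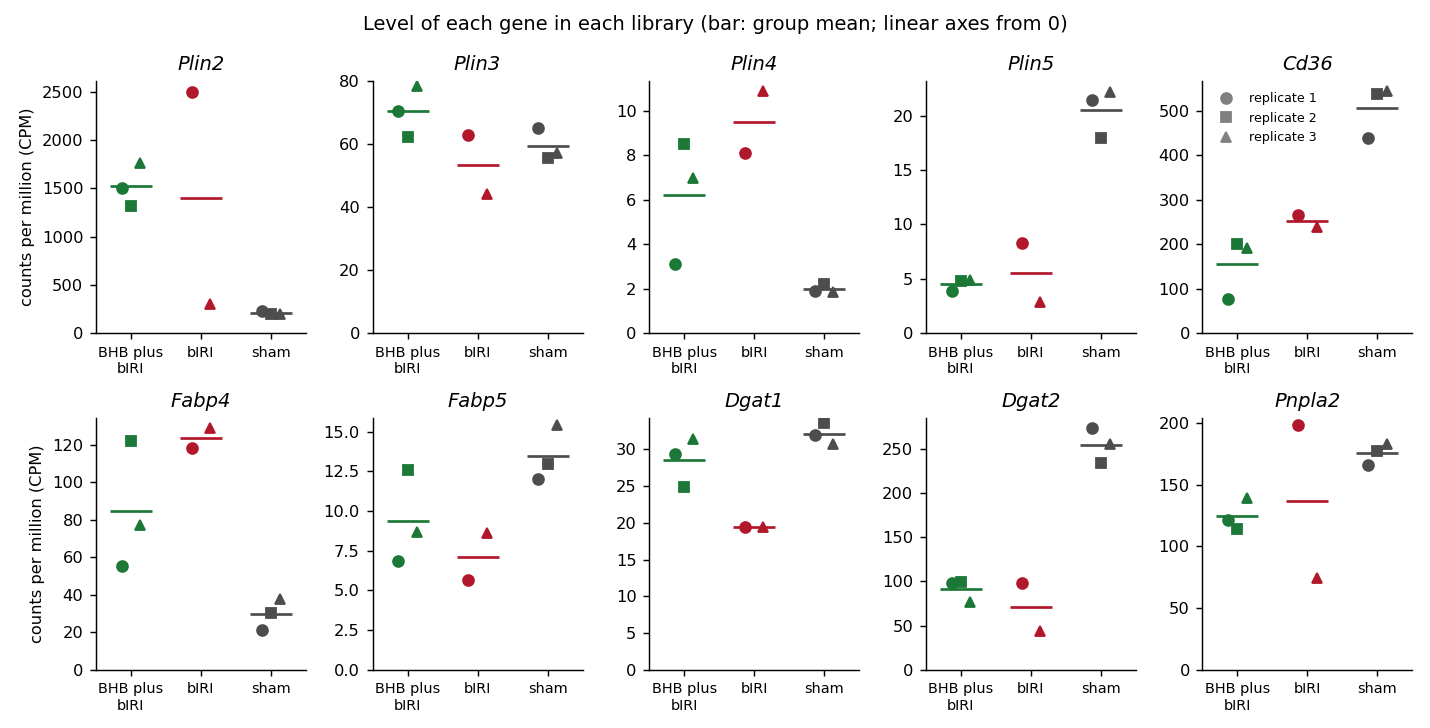
Level of each of the 10 genes in CPM, on linear axes from 0, in each of 3 BHB plus bIRI, 2 bIRI and 3 sham libraries; points are libraries and bars are group means. Plin2 lay at 302 CPM in 1 bIRI library and at 2500 CPM in the other, while the 3 BHB plus bIRI libraries lay between them.

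The perilipins changed in opposite directions. Plin2, which coats droplets in most tissues and whose protein is stable only on lipid, lies on the minus strand at chr4:86648386-86670060 of mm10 (ENSMUSG00000028494). It stood at 1510, 1320 and 1760 CPM in BHB plus bIRI kidneys, at 2500 and 302 CPM in bIRI kidneys, and at 226, 195 and 198 CPM in sham kidneys. Every injured library lay above every sham library, but bIRI replicate 3 exceeded the highest sham library by far less than the others did. Plin2 was 7.42-fold higher in BHB plus bIRI than in sham (log2 fold change 2.89, SE 0.60, adjusted p 0.00432) and 6.78-fold higher in bIRI than in sham (2.76, SE 0.63, adjusted p 0.00901). Without bIRI replicate 1 the log2 fold change in bIRI was 0.48 with an adjusted p of 0.0774, so that call rests on 1 library. The rise in BHB plus bIRI kept its call in all 20 alternative settings, with log2 fold changes between 2.78 and 3.01.

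Plin4, a perilipin best known from adipocytes and muscle, was higher in both injured groups, at low levels. It lies at chr17:56100591-56109803 on the minus strand (ENSMUSG00000002831), next to Plin5. It had 3.12, 8.50 and 6.98 CPM in BHB plus bIRI kidneys, 8.10 and 10.9 CPM in bIRI kidneys and 1.91, 2.21 and 1.86 CPM in sham kidneys. No injured library overlapped sham, and BHB plus bIRI replicate 1 was the lowest injured one. The log2 fold change was 1.63 in BHB plus bIRI (SE 0.36, adjusted p 0.00571) and 2.25 in bIRI (SE 0.39, adjusted p 0.00237), each against sham. The annotation has 17 exon bases of Plin4 overlap Hdgfl2 on the opposite strand, and the counting's strand setting is not given in the sources used here.

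Plin5, the perilipin of oxidative tissues that ties droplets to mitochondria, fell in both injured groups. Its gene (ENSMUSG00000011305, chr17:56111601-56117596) lies on the same strand as Plin4, 1797 bases away. It had 3.82, 4.80 and 4.89 CPM in BHB plus bIRI kidneys, 8.29 and 2.81 CPM in bIRI kidneys, and 21.4, 17.9 and 22.2 CPM in sham kidneys. All injured libraries lay below all sham libraries, with both bIRI libraries on either side of the BHB plus bIRI ones. The log2 fold change was -2.19 in BHB plus bIRI (SE 0.35, adjusted p 0.00112) and -1.88 in bIRI (SE 0.40, adjusted p 0.00653) against sham. The bIRI value was -2.93 without bIRI replicate 1 and -1.30 without bIRI replicate 3, and passed the test in both fits. The 2 neighbours Plin4 and Plin5 thus differed from sham in opposite directions in both injured groups.

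Plin3, a cytosolic perilipin that moves onto new droplets, passed the test in none of the comparisons. It lies at chr17:56277476-56292873 on the minus strand (ENSMUSG00000024197). It had 70.7, 62.3 and 78.4 CPM in BHB plus bIRI kidneys, 62.9 and 44.2 CPM in bIRI kidneys and 65.2, 55.6 and 57.1 CPM in sham kidneys. The ranges overlapped in each comparison. The log2 fold change against sham was 0.25 in BHB plus bIRI (95% interval -0.15 to 0.64) and -0.15 in bIRI (-0.59 to 0.30), so changes within these bounds could not be told from none.

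The perilipin makeup was counted per length, as CPM per kilobase of the longest protein-coding transcript, which puts different genes on a roughly common scale. Ratios and orders between genes depend on the length taken. That length was 1888 bases for Plin2 and 896 for Fabp4, whose exons of all transcripts together cover 3512 and 4489 bases. Plin2 made up 97.1% to 97.4% of the summed per-length level of Plin2 to Plin5 in BHB plus bIRI kidneys, 98.3% and 91.2% in bIRI kidneys and 79.4% to 80.7% in sham kidneys. The per-length ratio of Plin2 to Plin3 was 41.3, 40.9 and 43.4 in BHB plus bIRI kidneys, 76.6 and 13.2 in bIRI kidneys, and 6.70, 6.77 and 6.69 in sham kidneys. Both measures put every injured library above every sham library. This ratio was nearly equal among the libraries of the BHB plus bIRI group and among those of the sham group, and differed widely between both bIRI libraries. The per-length ratio of Plin2 to Plin5 was 289 to 417 in BHB plus bIRI, 317 and 113 in bIRI and 9.36 to 11.5 in sham kidneys.

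**Figure D2:**
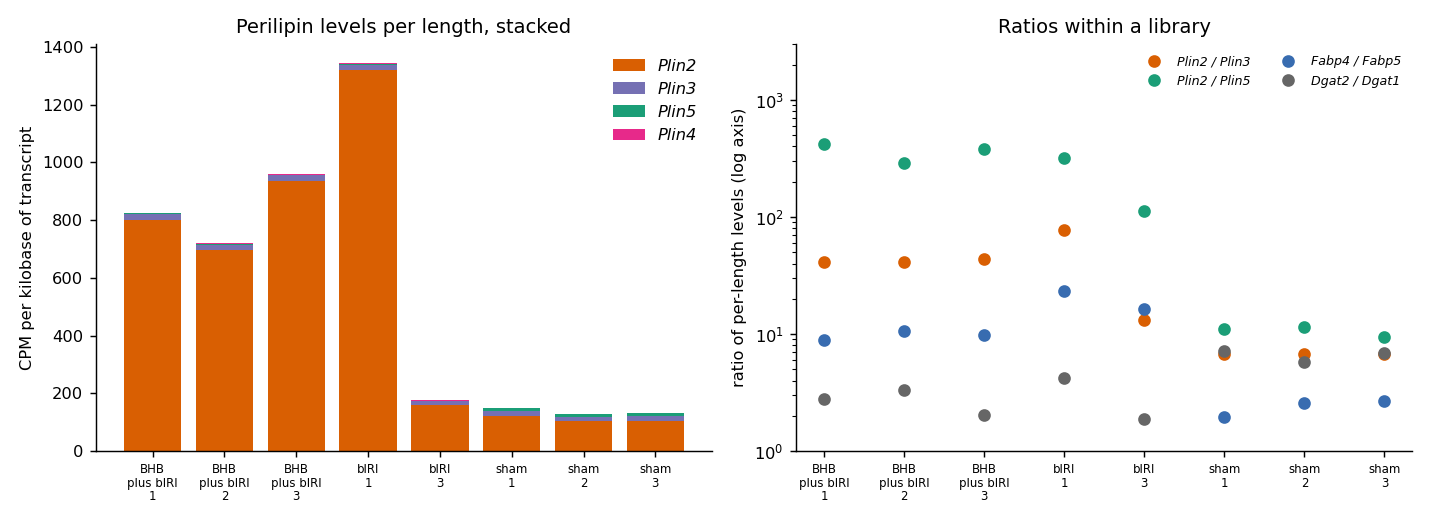
Left, CPM per kilobase of transcript of the 4 perilipins stacked in each library, on a linear axis from 0. Right, ratios of per-length levels within each library on a log axis, where the Plin2 to Plin3 ratio stayed between 6.69 and 6.77 in sham libraries and between 40.9 and 43.4 in BHB plus bIRI libraries.

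RefSeq windows from 250 bases before to 50 bases after a transcription start, on GRCm38.p6, were at hand for 6 of the 10 members. Those of the 2 neighbours that moved apart (Plin4 and Plin5), of Plin2 and of Cd36 are printed, 5′ to 3′ on the strand of the gene, since all 4 genes are widely described as PPAR targets. They span chr4:86670010-86670309 for Plin2, chr17:56109733-56110032 for Plin4, chr17:56117499-56117798 for the first of 2 Plin5 windows and chr5:17835847-17836146 for Cd36, all on the minus strand. Capitals mark matches on either strand to AGGTCA, the half-site bound by PPAR and related nuclear receptors (TGACCT on the other strand). They also mark matches to ACGTG, a form of the core bound by hypoxia-inducible factors, of which other forms were not searched.
Plin2: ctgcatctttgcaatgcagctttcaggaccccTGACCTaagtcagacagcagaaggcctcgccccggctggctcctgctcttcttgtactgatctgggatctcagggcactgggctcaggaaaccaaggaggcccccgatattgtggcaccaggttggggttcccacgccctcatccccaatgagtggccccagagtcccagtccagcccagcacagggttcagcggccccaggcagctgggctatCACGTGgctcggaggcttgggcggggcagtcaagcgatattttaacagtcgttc
Plin4: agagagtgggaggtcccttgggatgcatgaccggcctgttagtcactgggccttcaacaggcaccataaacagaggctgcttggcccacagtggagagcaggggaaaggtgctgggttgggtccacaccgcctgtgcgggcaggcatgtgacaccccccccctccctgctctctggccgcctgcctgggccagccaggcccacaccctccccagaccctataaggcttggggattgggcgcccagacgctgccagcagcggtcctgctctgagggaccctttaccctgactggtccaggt
Plin5: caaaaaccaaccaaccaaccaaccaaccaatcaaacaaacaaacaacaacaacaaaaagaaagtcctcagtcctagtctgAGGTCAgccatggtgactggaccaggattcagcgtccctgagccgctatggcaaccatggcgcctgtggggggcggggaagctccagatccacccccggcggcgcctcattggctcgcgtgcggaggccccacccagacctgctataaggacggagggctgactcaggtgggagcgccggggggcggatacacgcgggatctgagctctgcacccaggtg
Cd36: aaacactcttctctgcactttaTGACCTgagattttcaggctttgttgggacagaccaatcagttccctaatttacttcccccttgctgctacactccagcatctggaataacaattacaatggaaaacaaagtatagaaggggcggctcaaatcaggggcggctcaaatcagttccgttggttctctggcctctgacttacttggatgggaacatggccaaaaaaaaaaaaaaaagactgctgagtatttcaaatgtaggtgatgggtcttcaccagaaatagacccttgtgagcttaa
AGGTCA was found once each in the windows of Plin2, Cd36 and Plin5, and in neither Plin4, Plin3 nor Pnpla2, where 16.3% of 32851 windows of all genes held it. ACGTG was found only in Plin2 among these windows, as 2 overlapping matches on opposite strands that form CACGTG, and in 19.6% of all windows. The direct repeat of AGGTCA with 1 base between its copies was in none of the members' windows and in 0.0396% of all windows. These letter matches describe the windows and carry no measurement of binding. The Cd36 window belongs to a start inside the gene as GENCODE draws it.

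The enzymes that make triglyceride were lower in bIRI kidneys, and the lipase of the group was not called. Dgat2, the DGAT enzyme found on the endoplasmic reticulum and on droplets, lies on the minus strand at chr7:99153658-99182719 (ENSMUSG00000030747). It had 98.2, 99.5 and 76.9 CPM in BHB plus bIRI kidneys, 98.8 and 43.9 CPM in bIRI kidneys and 274, 234 and 256 CPM in sham kidneys. The sham libraries were all far above the injured ones. Dgat2 was 2.78-fold lower in BHB plus bIRI (log2 fold change -1.48, SE 0.28, adjusted p 0.00250) and 3.57-fold lower in bIRI (-1.84, SE 0.32, adjusted p 0.00261) than in sham, and both calls held in all 20 alternative settings. The bIRI value was -2.61 without bIRI replicate 1 and -1.36 without bIRI replicate 3.

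Dgat1, an enzyme of the endoplasmic reticulum that is unrelated to DGAT2 in sequence, lies on the minus strand at chr15:76502015-76511953 (ENSMUSG00000022555). It had 29.4, 24.9 and 31.4 CPM in BHB plus bIRI kidneys, 19.5 and 19.4 CPM in bIRI kidneys, and 32.0, 33.6 and 30.7 CPM in sham kidneys. Both bIRI libraries were nearly equal and lay below all others. In BHB plus bIRI the log2 fold change against sham was -0.17 (95% interval -0.49 to 0.16). Dgat1 was 1.65-fold lower in bIRI than in sham (log2 fold change -0.72, SE 0.17, adjusted p 0.00927). With offsets for transcript length and GC content that value was -0.38, with an adjusted p of 0.0614. The per-length ratio of Dgat2 to Dgat1 was 2.04 to 3.33 in BHB plus bIRI kidneys, 4.22 and 1.89 in bIRI kidneys and 5.82 to 7.15 in sham kidneys, so sham lay above every injured library.

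Pnpla2, the triglyceride lipase ATGL, lies on the plus strand at chr7:141455198-141460743 (ENSMUSG00000025509). It had 121, 114 and 139 CPM in BHB plus bIRI kidneys, 198 and 74.7 CPM in bIRI kidneys, and 166, 177 and 183 CPM in sham kidneys. One bIRI library was above and the other below every other library of the study, while all BHB plus bIRI libraries lay below all sham libraries. The log2 fold change against sham was -0.49 in BHB plus bIRI (95% interval -1.16 to 0.18, adjusted p 0.211) and -0.36 in bIRI (-1.12 to 0.40, adjusted p 0.438). Without bIRI replicate 1 the bIRI value was -1.30 with an adjusted p of 0.000274, and without bIRI replicate 3 it was 0.18 with an adjusted p of 0.465. The BHB plus bIRI value passed the test when either bIRI library was left out, with adjusted p of 0.00522 and 0.00634, and in the fit of these groups alone, at 0.00664.

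Of the carriers, Fabp4 was higher than in sham in both injured groups, and Cd36 was called lower only in BHB plus bIRI. Cd36, the fatty acid translocase, lies on the minus strand at chr5:17781690-17888801 (ENSMUSG00000002944). It had 75.6, 201 and 192 CPM in BHB plus bIRI kidneys, 265 and 238 CPM in bIRI kidneys and 439, 537 and 543 CPM in sham kidneys. The 3 groups were fully separate, with BHB plus bIRI the lowest. Cd36 was 3.24-fold lower in BHB plus bIRI than in sham (log2 fold change -1.69, SE 0.33, adjusted p 0.00327). In bIRI against sham the value was -1.01 (SE 0.38, adjusted p 0.0620), which missed the threshold. It passed in 7 of 20 alternative settings, DESeq2 among them at an adjusted p of 0.0196, and the length and GC offsets gave -1.52 with an adjusted p of 0.0165.

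Fabp4, the binding protein of adipocytes that macrophages and capillary endothelium also make, lies on the minus strand at chr3:10204088-10208576 (ENSMUSG00000062515). It had 55.1, 122 and 77.0 CPM in BHB plus bIRI kidneys, 118 and 129 CPM in bIRI kidneys and 21.3, 30.5 and 37.7 CPM in sham kidneys. All injured libraries lay above all sham libraries. Fabp4 was 2.84-fold higher in BHB plus bIRI (log2 fold change 1.51, SE 0.30, adjusted p 0.00354) and 4.14-fold higher in bIRI (2.05, SE 0.33, adjusted p 0.00160) than in sham. Its highest BHB plus bIRI value was in replicate 2, the library with the adipocyte markers, and without that library the rise in BHB plus bIRI was 1.15 with an adjusted p of 0.0118.

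Fabp5, the epidermal-type binding protein, lies on the plus strand at chr3:10012548-10016607 (ENSMUSG00000027533), 187480 bases from Fabp4. It had 6.88, 12.6 and 8.67 CPM in BHB plus bIRI kidneys, 5.65 and 8.62 CPM in bIRI kidneys and 12.0, 13 and 15.4 CPM in sham kidneys. Both bIRI libraries lay below all sham libraries, and BHB plus bIRI replicate 2 lay within the sham range. The log2 fold change against sham was -0.52 in BHB plus bIRI (SE 0.27, adjusted p 0.138) and -0.92 in bIRI (SE 0.31, adjusted p 0.0420), a call that was kept in 8 of 20 alternative settings. The per-length ratio of Fabp4 to Fabp5 was 8.83 to 10.7 in BHB plus bIRI kidneys, 23.1 and 16.5 in bIRI kidneys and 1.95 to 2.69 in sham kidneys, with no overlap between any of the groups.

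The order of the members per length also differed between the groups. In BHB plus bIRI kidneys Plin2 stood first at 811 ± 118 CPM per kilobase (SD, n = 3) and Fabp4 second at 94.7 ± 38.3, before Pnpla2, Cd36 and Dgat2, whose neighbours in that order overlapped. In bIRI kidneys Plin2 stood first at 1320 and 160 CPM per kilobase, followed by Fabp4 at 132 and 144, then Cd36, Pnpla2 and Dgat2, again with overlapping neighbours. In sham kidneys Cd36 stood first at 149 ± 17.2 CPM per kilobase, before Dgat2 at 113 ± 8.82 and Plin2 at 109 ± 9.16, which overlapped, while Fabp4 stood after Pnpla2. Dgat1, Plin3 and Fabp5 followed it there and overlapped in that order. Plin4 had the lowest mean in all groups, at 1.08 ± 0.482 CPM per kilobase in BHB plus bIRI and 0.347 ± 0.0332 in sham kidneys. In bIRI replicates 1 and 3 it had 1.41 and 1.90 CPM per kilobase, and Plin5 had 4.18 and 1.42. The 2 genes thus overlapped there, with Plin4 above Plin5 in bIRI replicate 3.

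**Figure D3:**
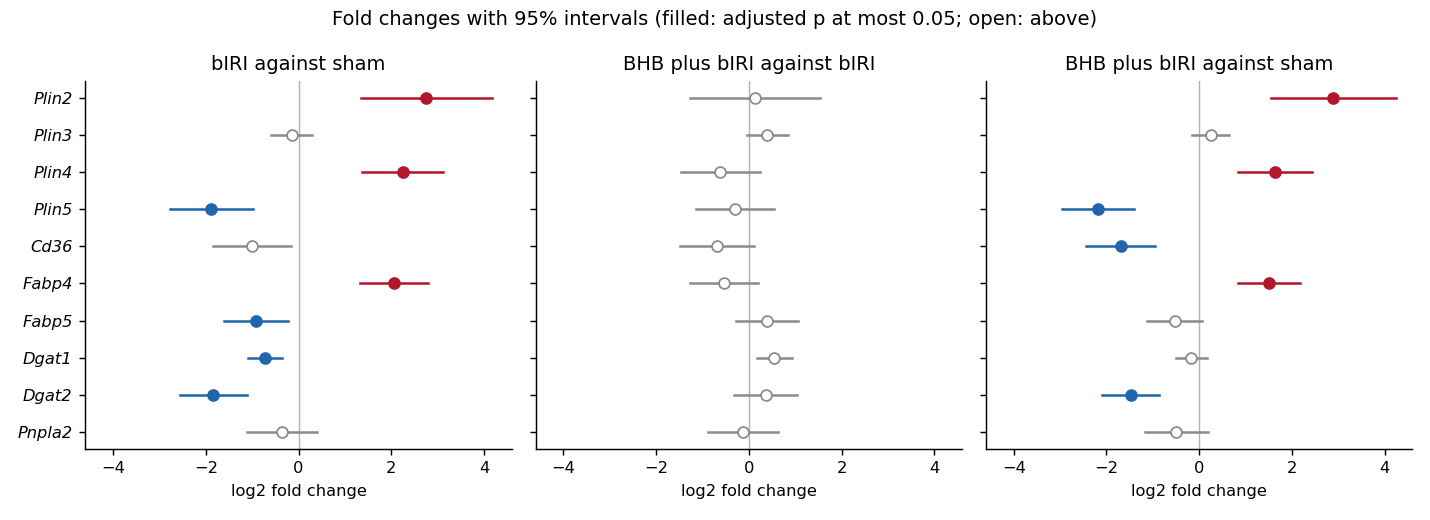
Log2 fold change of each member, first-named group over second, with 95% intervals from edgeR; filled points have an adjusted p of at most 0.05 and open points do not. Plin2, Plin4 and Fabp4 are filled on the right in both comparisons with sham, Plin5 and Dgat2 are filled on the left in both, and every point is open between BHB plus bIRI and bIRI.

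Between BHB plus bIRI and bIRI kidneys, none of the 10 members passed edgeR's test. Dgat1 came nearest, with all 3 BHB plus bIRI libraries above both bIRI libraries, a log2 fold change of 0.55 (SE 0.17, 95% interval 0.18 to 0.93), an unadjusted p of 0.00789 and an adjusted p of 0.0534. DESeq2 called it, alone among the members, at an adjusted p of 0.0130, where DESeq2 called 27.2% of all genes. Across 12390 genes the log2 fold changes of this comparison had a Spearman correlation of -0.537 with transcript length, a description over genes, which are not independent replicates. With offsets that take out trends in length and GC content the Dgat1 value was 0.11, with an adjusted p of 0.645. Cd36 was the other member whose groups did not overlap, where 46% of all genes did not overlap. Its value was -0.69 (SE 0.36, 95% interval -1.49 to 0.12, adjusted p 0.205), and -0.17 with the length and GC offsets.

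For the remaining members the intervals were wide. Plin2 differed by 0.13 (95% interval -1.28 to 1.54), beside 2 bIRI libraries that lay 8.28-fold apart, so rises and falls within these bounds could not be told from no change. Only 2.35% of all genes differed as much between both bIRI libraries. The values of Plin2, Plin5 and Pnpla2 in all 3 BHB plus bIRI libraries lay between both bIRI values. Those of Plin4 and Fabp4 were -0.62 (SE 0.38) and -0.54 (SE 0.33), and those of Plin3, Fabp5 and Dgat2 were 0.39 (SE 0.20), 0.39 (SE 0.30) and 0.36 (SE 0.31). The median over the members was 0, against -0.05 over all genes tested. Without bIRI replicate 1 the Plin2 value was 2.40, and without bIRI replicate 3 it was -0.71. Over the fits that leave out a single library, Plin5 ran between -0.88 and 0.73 and Dgat2 between -0.11 and 1.12. Pnpla2 ran between -0.67 and 0.79. The sign of the difference for Plin2, Plin5, Dgat2 and Pnpla2 therefore rests on which bIRI library is used. Plin3, Plin4, Cd36, Fabp4, Fabp5 and Dgat1 kept their sign in all of these fits. Their size still varied, as between 0.16 and 0.72 for Plin3 and between 0.12 and 0.73 for Fabp5.

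The genes nearest to each member over the 8 libraries were taken by Pearson correlation of log2 CPM, as a description in which all genes share libraries, depth and the same 3 groups. Nearest to Plin2 were Itga5, an integrin subunit (r = 0.996), and Rras2 and Pmepa1 (r = 0.994 each). Itga5 had 85.9, 82.4 and 104 CPM in BHB plus bIRI, 130 and 16.8 CPM in bIRI and 11.7, 11.1 and 13.7 CPM in sham kidneys, a split between both bIRI libraries like that of Plin2. Nearest to Dgat2 were Acaa2, a mitochondrial thiolase of fatty acid oxidation (r = 0.994), Slc16a13 and Igfbp4, and nearest to Plin5 were Mb21d2, Cmtm8 and Ephx2, the soluble epoxide hydrolase (r = 0.988 to 0.992). Acaa2 had 210, 178 and 162 CPM in BHB plus bIRI, 172 and 61.1 CPM in bIRI and 818, 625 and 662 CPM in sham kidneys. Cd36 was nearest to Vegfd (r = 0.973), Kcnj8 and Cd55, and Fabp4 to Fli1, a transcription factor of blood and endothelial cells (r = 0.972), Pls3 and Postn. Dgat1 was nearest to Ubl7, Tmem107 and Coq6, Plin3 to Gpr107, Sap30bp and Ddx56, Plin4 to Slc7a1, Tjp1 and Fam3c, Pnpla2 to Sbk1, Hoga1 and Glrx, and Fabp5, with the lowest leading value (r = 0.957), to Lcp1, Mxd1 and Entpd8.

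The wider pathway was read from 5 lists of genes that hold none of the members. Calls between BHB plus bIRI and bIRI in these lists depend on single libraries and on the fit. Without sham replicate 1, without sham replicate 2 or without BHB plus bIRI replicate 1, edgeR called 0 of all genes in that comparison, so that none of these list genes kept its call. The fit of these groups alone called 1 of all genes and the length and GC offsets left 2. Of 13 tested genes of droplet coat and size, 2 were higher and 6 lower in bIRI than in sham, 4 were higher and 6 lower in BHB plus bIRI than in sham, and 2 were higher and 1 lower in BHB plus bIRI than in bIRI. Of all genes tested, 18.9% were higher and 16.2% lower, 21.3% and 22.2%, and 4.88% and 8.65% in that order of comparisons. The median log2 fold changes were -0.68, -0.41 and 0.39 in that order of comparisons, against 0.08, 0.04 and -0.05 over all genes tested. Cidec, which fuses droplets in adipocytes, had 2.05, 9.32 and 8.07 CPM in BHB plus bIRI, 14.0 and 4.25 CPM in bIRI and 1.09, 1.85 and 2.04 CPM in sham kidneys, and was higher in both injured groups (log2 fold changes 1.96 and 2.45). Cideb, its relative of liver and lipoprotein loading, had 4.31, 2.97 and 1.96 CPM in BHB plus bIRI, 7.51 and 9.62 CPM in bIRI and 32.0, 33.9 and 36.3 CPM in sham kidneys. It fell in BHB plus bIRI (-3.46) and bIRI (-1.99) against sham and was lower in BHB plus bIRI than in bIRI (-1.47, adjusted p 0.0275). Fitm1, which helps droplets bud, fell in both injured groups (-1.50 in BHB plus bIRI and -2.94 in bIRI) and was higher in BHB plus bIRI than in bIRI (1.43, adjusted p 0.0300). The seipin gene Bscl2, needed at sites of droplet birth, also fell in both (-0.52 in BHB plus bIRI and -1.32 in bIRI) and was higher in BHB plus bIRI than in bIRI (0.79, adjusted p 0.0341). Hilpda, an inhibitor of PNPLA2 induced by hypoxia, had 9.95, 9.11 and 8.26 CPM in BHB plus bIRI, 11.2 and 1.57 CPM in bIRI and 2.29, 2.90 and 2.17 CPM in sham kidneys. It rose in BHB plus bIRI (1.89, adjusted p 0.0212), and in bIRI its value was 1.37 with an adjusted p of 0.100.

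Lipolysis genes other than Pnpla2 were called in 1 direction. Of 10 tested, 5 were lower and 0 higher in bIRI than in sham, 5 lower and 0 higher in BHB plus bIRI than in sham, and 2 lower and 0 higher in BHB plus bIRI than in bIRI, where 16.2%, 22.2% and 8.65% of all genes were lower. The list medians were -1.04, -1.05 and -0.32. Lipe, the hormone-sensitive lipase, had 12.6, 17.4 and 21.2 CPM in BHB plus bIRI, 16.4 and 10.8 CPM in bIRI and 33.2, 33.5 and 29.3 CPM in sham kidneys (-0.91 and -1.24 for the injured groups against sham). Lipa, the lysosomal acid lipase, had 92.8, 73.6 and 44.4 CPM in BHB plus bIRI, 106 and 45.0 CPM in bIRI and 366, 257 and 225 CPM in sham kidneys. The carboxylesterase Ces1d was lower than in sham (log2 fold change -4.67 in BHB plus bIRI and -3.44 in bIRI), with the reservation that the Ces1 genes are close copies whose reads the counting could split. Pnpla8, a phospholipase of mitochondria and peroxisomes, had 38.4, 38.6 and 28.7 CPM in BHB plus bIRI and 67.1 and 70.4 CPM in bIRI kidneys, and was lower in BHB plus bIRI (-0.96, adjusted p 0.0275), a call lost with single libraries left out, as given above.

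Among 18 tested genes of triglyceride and sterol ester synthesis, 2 were higher and 7 lower in bIRI than in sham, 4 higher and 9 lower in BHB plus bIRI than in sham, and 1 higher and 1 lower in BHB plus bIRI than in bIRI. Over all genes 18.9% were higher and 16.2% lower, 21.3% and 22.2%, and 4.88% and 8.65% in these comparisons, so the last count is near the share of all genes. The list medians of the log2 fold changes were -0.52, -0.65 and 0.18. Lpin1, a phosphatidate phosphatase and PPARα coactivator, had 10.7, 15.3 and 12.1 CPM in BHB plus bIRI, 20 and 20.7 CPM in bIRI and 104, 73.4 and 73.7 CPM in sham kidneys. Mogat2, which makes diacylglycerol from monoacylglycerol, had 14.5, 10.1 and 6.22 CPM in BHB plus bIRI, 12.8 and 4.27 CPM in bIRI and 66.7, 60.4 and 53.2 CPM in sham kidneys. Both fell in both injured groups. Mttp, which loads lipid onto apolipoprotein B, was also lower than in sham (log2 fold change -2.07 in BHB plus bIRI and -1.78 in bIRI). Apob had 23.7, 20.7 and 40.7 CPM in BHB plus bIRI, 43.9 and 122 CPM in bIRI and 103, 143 and 102 CPM in sham kidneys, and was lower in BHB plus bIRI than in bIRI (-1.55, adjusted p 0.0407), with bIRI replicate 1 much closer to the BHB plus bIRI libraries than bIRI replicate 3 was. The acyltransferase Agpat1 was higher there (0.84, adjusted p 0.0365), and both calls are among those lost with single libraries left out.

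Of 21 tested genes of fatty acid uptake, binding and activation, 3 were higher and 9 lower in bIRI than in sham, 4 higher and 11 lower in BHB plus bIRI than in sham, and 0 higher and 3 lower in BHB plus bIRI than in bIRI. Over all genes 18.9% were higher and 16.2% lower, 21.3% and 22.2%, and 4.88% and 8.65% in these comparisons. The list medians of the log2 fold changes were -0.50, -0.96 and 0.06. The binding protein Fabp1 of liver and proximal tubule had 1.47, 0.861 and 1.22 CPM in BHB plus bIRI, 0.394 and 1.74 CPM in bIRI and 15.4, 17.8 and 11 CPM in sham kidneys. It fell in both injured groups (-3.64 in BHB plus bIRI and -3.78 in bIRI), where Fabp4 rose. The acyl-CoA synthetases went separate ways. Acsl1, which feeds oxidation and triglyceride synthesis, had 82.2, 85.2 and 56.6 CPM in BHB plus bIRI, 171 and 167 CPM in bIRI and 818, 707 and 424 CPM in sham kidneys, and was lower in BHB plus bIRI than in bIRI (-1.18, adjusted p 0.0355). Acsl4, which prefers arachidonic acid and is known from ferroptosis, had 48.1, 75.7 and 47.7 CPM in BHB plus bIRI, 121 and 114 CPM in bIRI and 34.5, 31.2 and 26.4 CPM in sham kidneys. It was higher in both injured groups than in sham (0.90 in BHB plus bIRI and 1.93 in bIRI) and lower in BHB plus bIRI than in bIRI (-1.04, adjusted p 0.0303), a call that was lost, like that of Acsl1, with single libraries left out. Fabp6, the ileal bile acid carrier, was at 0.280, 0.301 and 0.272 CPM in BHB plus bIRI, at 0 and 0.349 CPM in bIRI and at 0 in all 3 sham libraries.

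Of 21 tested PPAR factors and well-known PPAR targets outside the 10 members, 10 were lower and 1 higher in bIRI than in sham, where 16.2% and 18.9% of all genes were. In BHB plus bIRI against sham 13 were lower and 1 higher (22.2% and 21.3% of all genes), and against bIRI 4 were lower and 0 higher (8.65% and 4.88%). The list medians were -0.60, -1.48 and -0.51. Cyp4a14, a fatty acid ω-hydroxylase, had 106, 204 and 122 CPM in BHB plus bIRI, 348 and 354 CPM in bIRI and 5590, 4860 and 3820 CPM in sham kidneys, though reads of the Cyp4a copies may be split between them. Ehhadh, of peroxisomal oxidation, and Cpt1a, which admits fatty acids to mitochondria, fell in both injured groups and were lower in BHB plus bIRI than in bIRI (-1.33 and -0.91, adjusted p 0.0433 and 0.0375), calls lost with single libraries left out. Ppara itself, named after its values had been seen, had 4.59, 5.34 and 4.81 CPM in BHB plus bIRI, 10.8 and 7.20 CPM in bIRI and 30.4, 19.0 and 11.5 CPM in sham kidneys. Plin2, Plin4 and Fabp4, the members that rose, thus stood beside a list in which most called genes were lower, as Plin5 and Dgat2 were.

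**Figure D4:**
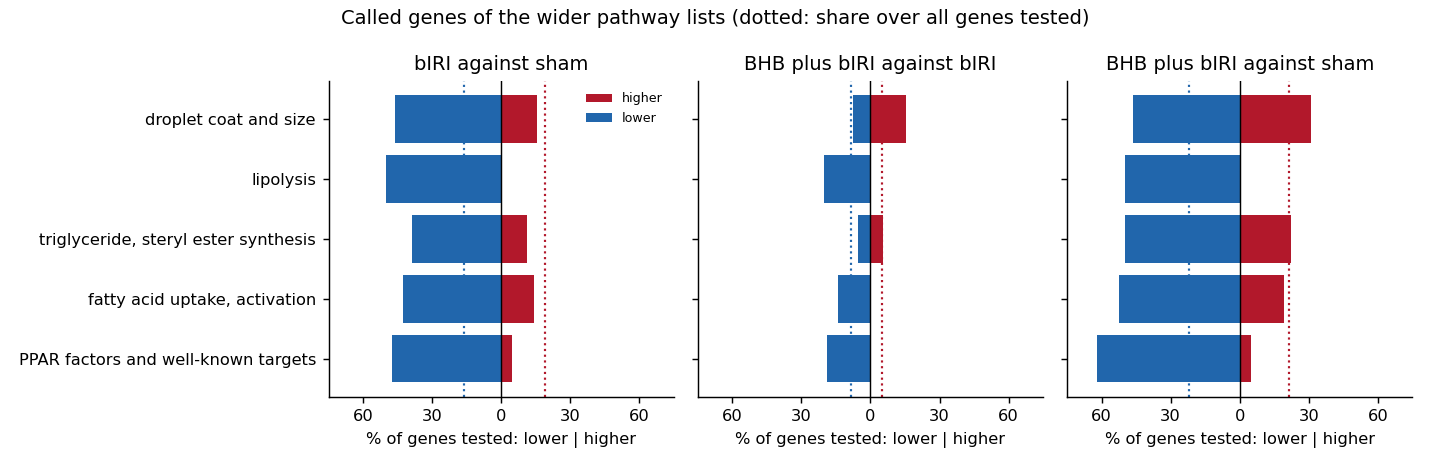
Share of the tested genes of each of 5 lists called lower (left of 0) or higher (right of 0), in percent, for each comparison; dotted lines give the share of all genes tested. In the lipolysis list 5 of 10 genes were lower and 0 higher in both comparisons with sham.

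Markers of cell types that carry these genes were set beside the members. The counts of called markers stand beside these shares of all genes tested. In bIRI against sham 18.9% were higher and 16.2% lower, and in BHB plus bIRI against sham 21.3% and 22.2%. In BHB plus bIRI against bIRI 4.88% were higher and 8.65% lower. All 11 proximal tubule markers tested were lower in bIRI and in BHB plus bIRI than in sham, together with Plin5 and Dgat2. Of 12 endothelial markers, 1 was higher and 0 lower in bIRI, and 3 were higher and 1 lower in BHB plus bIRI, each against sham. Their sum was 867 to 1380 CPM in BHB plus bIRI, 711 to 1250 CPM in bIRI and 881 to 950 CPM in sham kidneys, which overlap, while Fabp4 and Cd36 separated both injured groups from sham in opposite directions. The 13 macrophage and monocyte markers summed to 217 to 266 CPM in BHB plus bIRI, 140 to 167 CPM in bIRI and 133 to 218 CPM in sham kidneys. Of these markers 6 were higher and 2 lower in BHB plus bIRI than in sham. In bIRI 3 were higher (Cd68, Itgam and Mrc1) and 2 lower (Csf1r and Ly6c2) than in sham. Of 6 neutrophil markers tested, 6 were higher in BHB plus bIRI and 5 in bIRI than in sham, and 3 were higher in BHB plus bIRI than in bIRI. Of 6 markers of the thick ascending limb and distal tubule, 5 were lower in BHB plus bIRI and 1 in bIRI than in sham, and 3 were lower in BHB plus bIRI than in bIRI. Of the adipocyte markers, Adipoq was at 3.96 CPM and Cfd at 49.8 CPM in BHB plus bIRI replicate 2, and at no more than 0.174 and 1.66 CPM in any other library. Of 5 adipocyte markers that could be tested, 3 were higher (Adipoq, Cfd and Cidec) and 1 lower in BHB plus bIRI than in sham. Adipoq and Cfd were high in replicate 2 only. In BHB plus bIRI replicates 1 and 3 Adipoq was at 0 and 0.0543 CPM and Cfd at 0.0932 and 0.435 CPM. In bIRI 1 was higher and 1 lower than in sham. The adipocyte list holds Cidec and Lipe, which are also in the droplet and lipolysis lists. Lipe made up 33.2 of the 34.7 CPM of the adipocyte sum in sham replicate 1, and 17.4 of 89.9 CPM in BHB plus bIRI replicate 2. Fabp4 and Plin4 had their highest means in the bIRI libraries. There Adipoq was at 0.0875 and 0.174 CPM, Cfd at 1.66 and 1.55 CPM and Cidec at 14.0 and 4.25 CPM. Plin1 was at 0.0438 and 0.393 CPM and Lipe at 16.4 and 10.8 CPM in these libraries. In sham libraries Adipoq was at 0 to 0.0457 CPM, Cfd at 0.149 to 0.413 CPM and Cidec at 1.09 to 2.04 CPM. Plin1 was at 0.0994 to 0.137 CPM and Lipe at 29.3 to 33.5 CPM in sham. Without BHB plus bIRI replicate 2, 6 members were still called between BHB plus bIRI and sham, with Plin4 at 1.34 (adjusted p 0.0252) and Cd36 at -1.92 (adjusted p 0.00742), and 0 between BHB plus bIRI and bIRI. The part of these marker differences in the members' values was not tested.

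**Figure D5:**
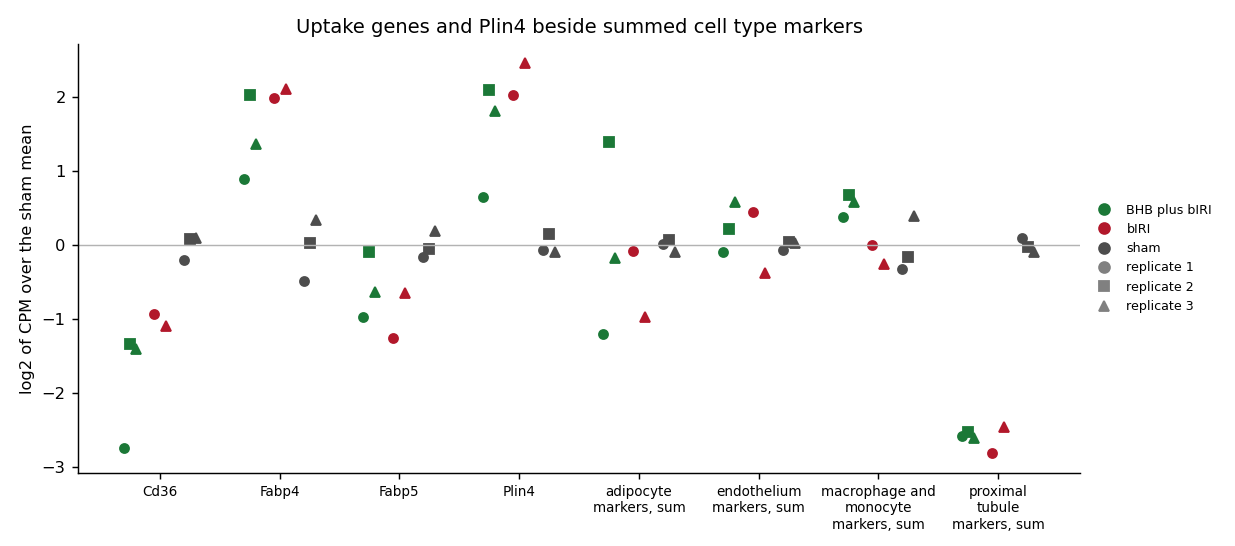
Log2 of the CPM over the sham mean for Cd36, Fabp4, Fabp5 and Plin4 and for the summed markers of 4 cell types, with 1 point a library. The adipocyte sum, which is mostly Lipe in sham libraries, stands high only in BHB plus bIRI replicate 2 (1.39). Fabp4 and Plin4 lie above the sham mean in all injured libraries. The proximal tubule sum lies between -2.81 and -2.45 in all injured libraries.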

How the data were processed

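RNA was measured in mouse kidney by paired-end sequencing of poly(A) RNA, per the labels. Per the submitters' processing notes, HISAT2, featureCounts from Subread and DESeq2 were used with mm10. Their versions, the annotation and the strand setting are not given in the sources used here. Each library's deposited table held raw counts of reads per gene. Symbols, positions and transcript lengths came from GENCODE M21, which left 458 genes without a symbol. bIRI replicate 2 was left out because its counts were the mean of the other 2 bIRI tables.

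Counts were filtered with filterByExpr, scaled by TMM (factors 0.83 to 1.37) and fitted with the robust quasi-likelihood model of edgeR 4.0.16 in R 4.3.3, with 1 mean per group over 8 libraries. The fit had 5 residual degrees of freedom, and its biological coefficient of variation was 0.296. Tests were two-sided, with Benjamini-Hochberg adjustment over 17967 genes and a threshold of 0.05. CPM used TMM-scaled library sizes, with a prior count of 2 for correlations. Alternatives were DESeq2 1.42.0, other scalings and filters, all 9 tables, fits of the compared groups, a replicate block, length and GC offsets (splines with 5 degrees of freedom), a minimum fold of 2, and omission of single libraries.

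The members and lists were chosen with earlier results of these data known. Named were all members, up to 4 called genes of each list per comparison with the largest log2 fold change, and the 3 genes most correlated with each member among those with a mean of at least 5 CPM, predicted gene models left out. A gene that the rule names is not reported here. Promoter windows are RefSeq's, on GRCm38.p6.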

Additional observations from a re-analysis of the deposited data

How the results depend on the processing

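Against sham, the count of called members stayed within 1.5 times of 7 in bIRI (5 to 8 over all alternatives) and of 6 in BHB plus bIRI (6 to 7). Plin4, Fabp4, Plin5 and Dgat2 were called in both comparisons with sham under all 20 alternatives, as were Plin2 and Cd36 in BHB plus bIRI. Plin2 in bIRI lost its call without bIRI replicate 1, with no filter on low counts (adjusted p 0.0756) and with the replicate block (0.0504).

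Between BHB plus bIRI and bIRI, where 0 members were called, DESeq2, all 9 libraries, upper-quartile factors and scaling without mitochondrially encoded and the 20 most abundant genes each called 1, which was Dgat1. Leaving out single libraries gave 0 to 6 called members. Over all genes 2431 were called; DESeq2 gave 4507, the fit of all 9 libraries gave 5847, a fold of at least 2 gave 1568, length and GC offsets 2, the compared groups alone 1, and the replicate block 0, with or without the offsets. Leaving out single libraries gave 0 to 8381 there, and 4180 to 9064 in bIRI against 6303. Where 1 library is left, it is assumed to vary like the other groups.

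Signs turned under length and GC offsets for Plin3 in bIRI against sham (0.029) and for Plin2 (-0.037) and Fabp5 (-0.105, and -0.218 with the replicate block) in BHB plus bIRI against bIRI. Over the fits that leave out a single library, the value in bIRI against sham ran between -0.493 and 0.087 for Plin3 and between -1.299 and 0.179 for Pnpla2. In BHB plus bIRI against bIRI it ran between -0.711 and 2.398 for Plin2, -0.885 and 0.733 for Plin5, -0.114 and 1.116 for Dgat2 and -0.672 and 0.793 for Pnpla2. The ends of these ranges came from leaving out bIRI replicate 1 or bIRI replicate 3. The cause of these changes was not tested.

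Same-numbered libraries of BHB plus bIRI and sham had deviations from their group means correlated by 0.0234, 0.0208 and 0.0675. For bIRI and sham these values were -0.064 and -0.206, and for BHB plus bIRI and bIRI 0.0925 and -0.0451. Such deviations cancel out within each small group, so the correlations can neither show nor exclude pairing. The numbers were not taken to pair samples in the main fit. With the replicate block 5 members were called in bIRI, without Plin2 and Fabp5, and 6 in BHB plus bIRI, against sham. That fit called 4581 of all genes in bIRI and 6556 in BHB plus bIRI, against sham.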

Other observations

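Several genes outside the 10 members differed between both bIRI libraries in the direction of Plin2, which was 8.28-fold higher in bIRI replicate 1 than in bIRI replicate 3. These genes were picked after their values had been seen. Angptl4, a secreted inhibitor of lipoprotein lipase, had 273 CPM in replicate 1 and 51.5 CPM in replicate 3, beside 223, 156 and 239 CPM in BHB plus bIRI and 129, 95.2 and 124 CPM in sham kidneys. Hilpda had 11.2 and 1.57 CPM, and the tubular injury marker Havcr1 had 1930 and 534 CPM, in bIRI replicates 1 and 3. Ppargc1a, a coactivator of mitochondrial genes, ran the other way, with 18.4 CPM in bIRI replicate 1 and 79.3 CPM in replicate 3, beside 14.1, 12.8 and 11.9 CPM in BHB plus bIRI and 36.6, 40.6 and 30.7 CPM in sham kidneys. It was lower in BHB plus bIRI than in sham (-1.48, adjusted p 0.0184). Its call against bIRI (-1.92, adjusted p 0.0339) was lost without sham replicate 1, without sham replicate 2 and without BHB plus bIRI replicate 1, where 0 genes were called, and bIRI replicate 1 lay close to the BHB plus bIRI libraries. Umod, of the thick ascending limb, had 1410 and 2860 CPM in bIRI replicates 1 and 3. The median gene differed by 0.64 on the log2 scale between these 2 libraries.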
